A study of Mus musculus with 9 samples.

Results

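The genes described here are 35 genes that mark microglia, the resident macrophages of the brain, either in their resting (homeostatic) state or in an activated, disease-associated state. They were chosen by gene symbol from general knowledge of microglia, with earlier results of these data known. Matched to Ensembl identifiers, they make up 35 of the 55421 genes in the count table. By role they are 7 surface receptors of resting microglia, 8 other genes of resting microglia, the 3 chains of complement C1q, 4 genes of Trem2 and Fc receptor signalling, 4 genes of leukocytes and phagocytes in general, and 9 genes of activated microglia.

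Bulk RNA sequencing covered hippocampal cells in 9 libraries, in 3 groups of 3. The groups were wild-type mice with a sham operation (WT + Sham), wild-type mice with a mild traumatic brain injury (WT + mTBI), given as one controlled cortical impact, and mice with the Tmsb4x Conditional Knockout and the same injury. Tmsb4x encodes thymosin beta 4, a small protein that binds actin monomers. Per the labels, cells were freed with trypsin and sorted live by tdTomato, a red fluorescent protein expressed in neurons of these mice. The labels give neither the Cre driver of the knockout nor the deleted part of the gene, nor age, sex and time after injury. No group combined the knockout with a sham operation, and a single cortical impact is the only form of injury in the series.

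Microglia enter the brain early in development, depend on signalling through the receptor Csf1r for their survival, and survey the tissue with motile processes guided by purine receptors such as P2ry12. They make nearly all of the C1q of the brain, the protein that starts the classical complement pathway and tags material for uptake. In several models of injury and neurodegeneration, microglia lose transcripts of the resting state and gain a set that includes Cst7, Itgax, Clec7a, Lpl and Spp1, a shift that partly depends on the lipid-sensing receptor Trem2.

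The promoters of 5 members are shown first, because the ETS-type factor PU.1, which binds sequences with the core AGGAAGT, is a known regulator of microglial genes. All 5 windows shown hold this motif on either strand. For Spp1 only a window with the motif is shown. Most members with a window, among them Fcgr3, Ly86, Cd9, Csf1 and Trem2, have no window with the motif. Their windows are not shown. Each window runs 5′ to 3′ on the gene's strand from 250 bases before to 50 bases after the RefSeq gene start, on GRCm38.p6. Capitals mark AGGAAGT or its reverse complement ACTTCCT. The windows lie at chr4:136886151-136886450 for C1qb (minus strand), chr4:136892865-136893164 for C1qc (minus strand), chr3:59262936-59263235 for P2ry12 (minus strand), chr3:95526536-95526835 for Ctss (plus strand) and chr5:104434861-104435160 for Spp1 (plus strand).
C1qb: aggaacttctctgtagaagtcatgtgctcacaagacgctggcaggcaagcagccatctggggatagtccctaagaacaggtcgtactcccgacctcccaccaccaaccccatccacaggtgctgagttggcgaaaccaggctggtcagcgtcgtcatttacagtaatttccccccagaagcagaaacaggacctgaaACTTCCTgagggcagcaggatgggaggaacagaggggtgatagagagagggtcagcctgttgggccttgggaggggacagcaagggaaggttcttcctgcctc
C1qc: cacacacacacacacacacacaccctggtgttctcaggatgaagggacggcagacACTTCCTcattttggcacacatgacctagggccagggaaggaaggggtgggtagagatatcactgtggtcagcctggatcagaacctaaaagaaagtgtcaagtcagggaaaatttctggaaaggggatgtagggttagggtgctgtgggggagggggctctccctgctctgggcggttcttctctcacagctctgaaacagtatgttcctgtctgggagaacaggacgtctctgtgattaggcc
P2ry12: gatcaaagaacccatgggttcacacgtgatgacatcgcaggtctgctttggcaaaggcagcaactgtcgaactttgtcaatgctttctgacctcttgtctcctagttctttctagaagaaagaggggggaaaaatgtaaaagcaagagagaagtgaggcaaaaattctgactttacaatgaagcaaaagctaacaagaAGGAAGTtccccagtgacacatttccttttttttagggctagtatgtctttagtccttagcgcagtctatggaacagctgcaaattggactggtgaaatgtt
Ctss: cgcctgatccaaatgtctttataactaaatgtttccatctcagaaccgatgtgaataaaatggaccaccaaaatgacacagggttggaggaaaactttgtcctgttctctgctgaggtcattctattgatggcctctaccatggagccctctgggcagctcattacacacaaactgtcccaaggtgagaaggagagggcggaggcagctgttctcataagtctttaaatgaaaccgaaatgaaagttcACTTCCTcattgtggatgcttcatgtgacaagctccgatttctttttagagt
Spp1: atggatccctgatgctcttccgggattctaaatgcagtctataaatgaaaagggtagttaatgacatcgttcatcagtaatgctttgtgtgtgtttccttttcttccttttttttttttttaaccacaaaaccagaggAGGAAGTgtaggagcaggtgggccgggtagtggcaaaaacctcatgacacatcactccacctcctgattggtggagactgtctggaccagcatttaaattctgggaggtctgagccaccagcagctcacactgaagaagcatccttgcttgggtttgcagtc

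In these windows the motif started 53 bases before the gene start for C1qb, 195 for C1qc, 52 for P2ry12, 2 for Ctss and 112 for Spp1. Of the 27 members with a window in the RefSeq table, 9 (33.3%) held the motif on either strand, namely C1qb, C1qc, Cst7, Ctss, Fcrls, P2ry12, Ptprc, Sall1 and Spp1. Counted by window, since a gene can have several starts, 10 of 33 member windows (30.3%) held it, beside 3072 of all 32851 windows (9.35%). A match describes letters in the window and is not evidence of binding.

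Totals were 36452443 to 39590872 counts per library. Levels are given as CPM, counts divided by a library size that carries edgeR's normalization factor. The targeted gene, Tmsb4x, stood at 2.73, 1.68 and 2.23 CPM in the sham group, at 900, 553 and 297 CPM in the wild-type mTBI libraries, and at 1.83, 2.79 and 2.77 CPM in the knockout mTBI libraries. The sham group, labelled wild-type, thus carried Tmsb4x at the level of the knockout libraries, and every direction given below against sham rests on that label. Xist, transcribed from the inactive X chromosome of females, reached 835 CPM in 1 injured wild-type library, replicate 3, and at most 0.892 CPM in the other 8. The 3 sham libraries differed little from each other, with a biological coefficient of variation of 3.27% over all genes against 19.7% in the wild-type mTBI and 18.7% in the knockout mTBI group. Over the members this coefficient was 2.98%, 16.4% and 29.8%. Nothing in the labels says that the sham libraries share a mouse. If they do, their spread is technical, and the p-values against sham do not measure a spread between sham mice. All 3 groups shared 1 spread in the fit, so the sham spread also entered the p-values of the knockout comparison. A fit with the sham libraries summed to 1 sample stands in the closing section.

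All 35 members had counts, although the sort was for a neuronal fluorescent protein. Their summed level was 682 to 906 CPM, or 0.0678% to 0.0906% of all counts, beside 1.06% to 1.18% for 10 neuronal markers led by Camk2a and Snap25. Markers of other cells were also present: 9 astrocyte markers led by Slc1a2 and Aldoc made up 0.413% to 0.526% of counts, and 8 oligodendrocyte markers led by Mbp made up 0.518% to 0.970%. Choroid plexus and ependymal markers, led by Ttr and Enpp2, summed to 231 CPM in each sham library and 243 CPM in knockout mTBI replicate 1, and to between 4088 and 6178 CPM in the other 5. The label of sorted neurons therefore does not describe all RNA in these libraries. In bulk RNA, fewer microglia and less of a transcript per microglia cannot be told apart.

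**Figure D1:**
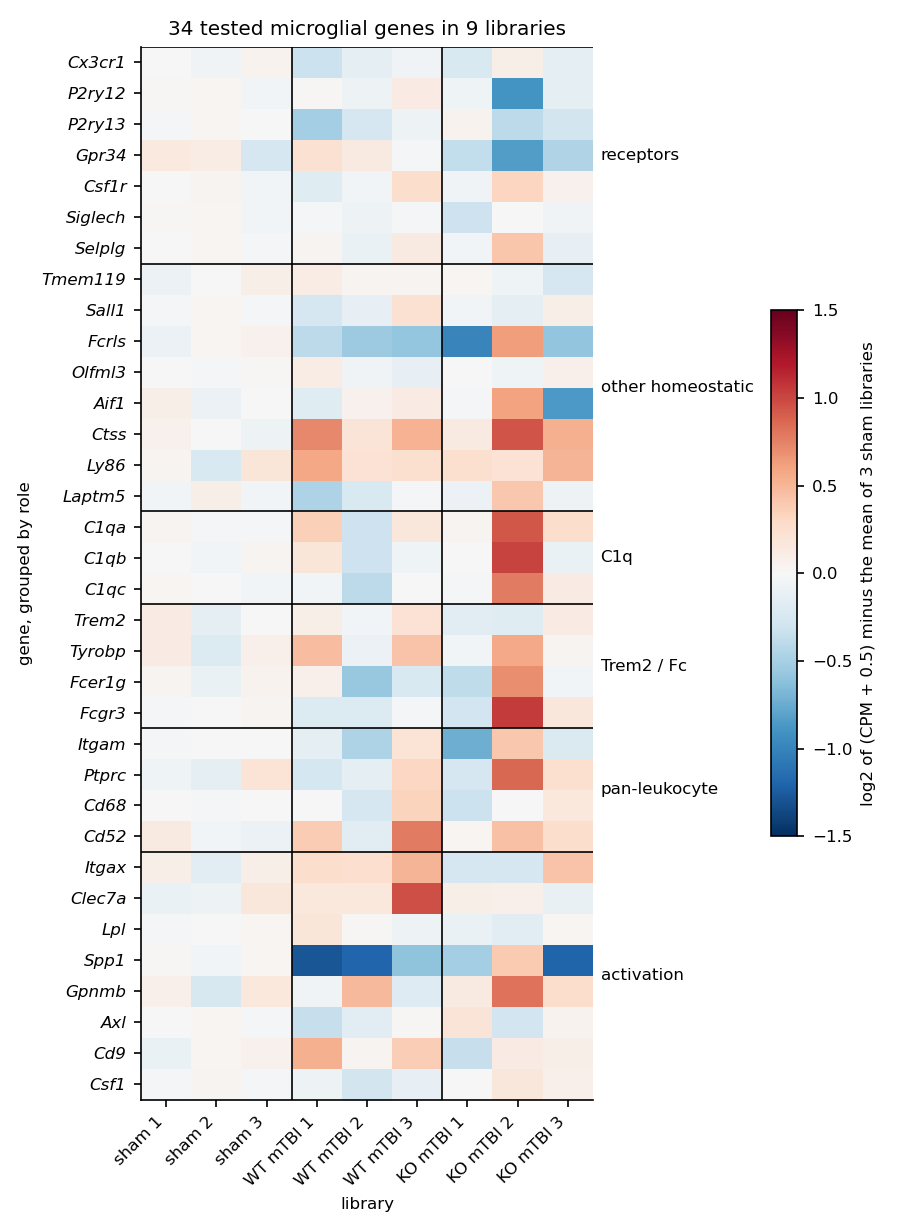
Colour gives log2 of (CPM + 0.5) for each of the 34 tested members (rows, by role) in each of the 9 libraries (columns, by group), minus the member's mean over the 3 sham libraries. The 3 sham columns are nearly uniform, and knockout mTBI replicate 2 stands apart with high C1q chains, Fcgr3, Fcrls and Ptprc and low P2ry12 and Gpr34.

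Per length of exon, the member of highest level was Ctss, which encodes the lysosomal protease cathepsin S, at 40.1 ± 10.4 RPKM (CPM per kilobase of exon, mean and SD, n = 9 libraries). C1qa and C1qb followed at 30.5 ± 8.46 and 28.8 ± 9.51 RPKM, values that did not differ beyond their spread. A middle tier held Cd9 at 15.6 ± 2.80 RPKM, C1qc at 15.6 ± 3.92, Csf1r at 14.6 ± 1.70, Tyrobp at 12.9 ± 2.62, P2ry12 at 11.7 ± 2.01 and Cx3cr1 at 11.0 ± 0.998, neighbours whose ranges overlap. Fcrls, Axl, Laptm5, Lpl, Tmem119, Cd68, Fcer1g, Csf1, Selplg and Fcgr3 had mean levels between 9.42 and 5.12 RPKM. Sall1, P2ry13, Spp1, Gpr34, Aif1, Siglech, Olfml3, Trem2 and Ly86 lay between 4.70 and 1.97 RPKM. The lowest were Itgam, Cd52, Gpnmb, Ptprc, Cst7, Clec7a and Itgax, from 0.997 down to 0.0594 RPKM. The receptors Csf1r, P2ry12 and Cx3cr1 of the resting state thus stood in the upper tiers, and the disease-associated genes Cst7, Clec7a and Itgax at the foot of the list.

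The injury comparison, wild-type mTBI against wild-type sham, asked whether mild injury moved microglial transcripts in these cells. No member rose or fell at the threshold of an adjusted p under 0.05. Spp1, osteopontin, had the lowest p and lower values after injury, Ctss and Ly86 had higher values without overlap of the groups, and most receptors of the resting state stayed close to their sham levels. Of 35 members 34 passed the count filter, since Cst7 had too few counts. In edgeR's quasi-likelihood test 0 of these 34 were called, beside 0.509% of the 20032 genes tested (0.384% higher and 0.125% lower). At an unadjusted p under 0.05 there were 3 higher members (Ctss, Cd9 and Ly86) and 1 lower (Spp1), 11.8% of 34 beside 13.2% of all genes (7.45% higher and 5.79% lower). Groups did not overlap for 3 higher members (Ctss, Ly86 and Itgax, 8.82%, all genes 12.4%) and 4 lower members (P2ry13, Fcrls, Spp1 and Csf1, 11.8%, all genes 11.5%). Changes were positive for 18 of 34 members (52.9%, all genes 53.0%), and the members' median log2 change was 0.016, beside 0.018 over all genes, so that the share of members that differed was near that of genes at large. DESeq2 called 1 member, Spp1 (adjusted p = 0.0408), and limma-voom called 0.

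Among the receptors of the resting state, Csf1r, the receptor for the growth factors Csf1 and Il34, was at 81.2, 83.6 and 79.3 CPM in sham, at 71.5, 78.9 and 98.03 in wild-type mTBI and at 78.1, 102 and 85.4 in knockout mTBI. The 3 groups overlapped. P2ry12, the ADP receptor that steers microglial processes, was at 32.0, 32.2 and 30.6 CPM in sham, 32.1, 30.0 and 34.4 in wild-type mTBI and 30.1, 16.7 and 28.8 in knockout mTBI. The injured wild-type libraries thus spanned the sham level of P2ry12. One knockout library, replicate 2, lay at about 0.534 times the median of the other 8. P2ry13, a related ADP receptor, was at 12.5, 12.98 and 12.6 CPM in sham and at 8.77, 10.6 and 12.1 in wild-type mTBI, without overlap, and its log2 change of -0.28 did not pass (adjusted p = 0.439, edgeR). In the knockout it was at 13.2, 9.57 and 10.5 CPM. Cx3cr1, the receptor for the neuronal chemokine fractalkine, ranged from 41.9 to 55.8 CPM over the 9 libraries, Siglech, a sialic acid-binding lectin, from 10.7 to 13.7, and Selplg, the ligand of P-selectin, from 22.0 to 32.2.

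Gpr34, a receptor for lysophosphatidylserine, had the smallest p among members in the comparison of knockout with wild-type mTBI. It was at 10.7, 10.4 and 7.98 CPM in sham, at 11.3, 10.6 and 9.51 in wild-type mTBI and at 7.37, 5.17 and 6.91 in knockout mTBI. All 3 knockout libraries lay below all 6 others. The log2 change was -0.69 (SE 0.17, 95% interval -1.06 to -0.33), or 1.62-fold lower, with an adjusted p of 0.732 in edgeR, so that it was not called. Against sham the log2 change was -0.58 (SE 0.17, adjusted p = 0.310, edgeR). Without knockout replicate 2, the lowest library, it was -0.55 against wild-type mTBI and -0.45 against sham. Gpr34 lies at chrX:13632089-13640858 inside Cask on the opposite strand without shared exon bases. Reads were counted without regard to strand, and Cask, at 68.4 to 74.9 CPM in the knockout and 63.9 to 78.9 CPM in the other libraries, overlapped between groups. P2ry12 and P2ry13 lie inside Med12l, likewise on the opposite strand, with 9 shared exon bases for P2ry12 and 0 for P2ry13. Med12l had its lowest level, 23.1 CPM, in replicate 1 of wild-type mTBI, and 46.7 to 55.1 CPM elsewhere.

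**Figure D2:**
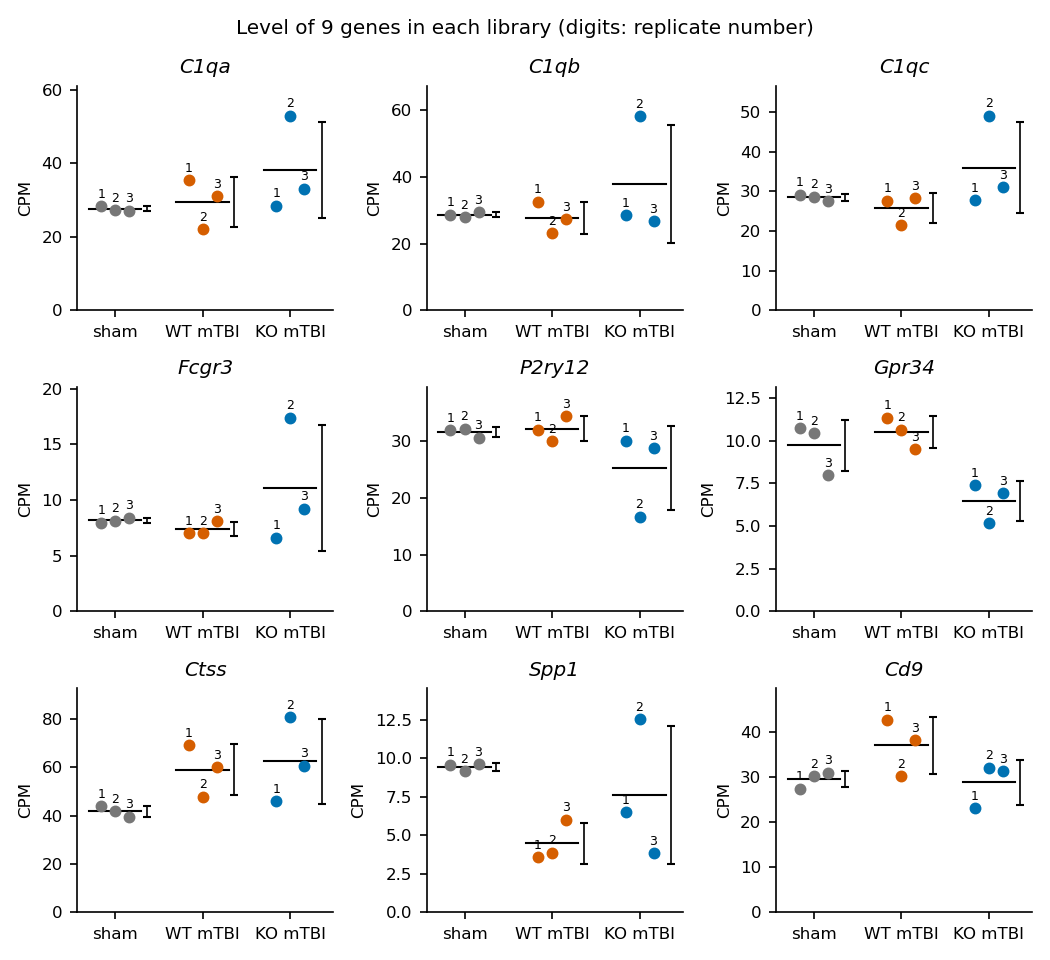
Points give the CPM of single libraries (digits are replicate numbers) for 9 members by group, with a line at the group mean, a bar of 1 SD on either side (n = 3) and each panel on its own axis from 0. Knockout mTBI replicate 2 is the topmost point for C1qa, C1qb, C1qc, Fcgr3, Ctss and Spp1 and the lowest for P2ry12 and Gpr34.

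Among the other genes of the resting state, Ctss was at 43.8, 42.0 and 39.6 CPM in sham, at 69.0, 47.9 and 60.1 in wild-type mTBI and at 46.0, 80.8 and 60.6 in knockout mTBI. Each of the 6 injured libraries lay above each sham library. The log2 change was 0.50 in wild-type mTBI (SE 0.18, 1.41-fold, adjusted p = 0.276) and 0.58 in knockout mTBI against sham (SE 0.18, adjusted p = 0.388), both by edgeR and neither called. With no count filter, the change passed in both comparisons, at adjusted p = 0.0172 and 0.00551. Leaving out knockout replicate 2 lowered the second change to 0.35. Ly86, the secreted partner of an inhibitory Toll-like receptor homologue, was at 6.21, 5.04 and 6.86 CPM in sham, 9.21, 7.04 and 7.15 in wild-type mTBI and 7.14, 7.06 and 8.71 in knockout mTBI. All 6 injured libraries lay above sham here too, by a log2 change of 0.37 (adjusted p = 0.373) and 0.34 (adjusted p = 0.739), which did not pass in edgeR.

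Fcrls, an Fc receptor-like molecule of mouse microglia, was at 23.7, 25.8 and 26.5 CPM in sham, at 19.2, 17.2 and 16.8 in wild-type mTBI and at 12.5, 39.4 and 16.6 in knockout mTBI. Of the 6 injured libraries 5 lay below sham, and knockout replicate 2 lay above all others. The log2 change in wild-type mTBI was -0.52 (SE 0.32, adjusted p = 0.502), while a fit of only the 6 wild-type libraries gave an adjusted p of 0.0288 in edgeR. Border macrophages are the macrophages of meninges and perivascular spaces. Their 9 markers were led by Stab1 and Mrc1, and none of them was at 0 throughout. In any comparison 0 of the 9 were called by edgeR (all genes 0.0150% to 0.509%). The 9 summed to 35.8 to 37.1 CPM in sham, 20.5 to 34.6 in wild-type mTBI, and 32.7, 48.5 and 26.3 CPM in the knockout libraries. Knockout replicate 2 was the highest library for both Fcrls and this sum, while knockout replicate 1, the lowest for Fcrls, was not low in the sum. In the injury comparison 2 of the 9 markers had positive changes and 7 negative ones. Their part in the values of Fcrls and Spp1 was not tested.

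Tmem119, a membrane protein used to mark microglia, spanned 14.3 to 18.5 CPM over the 9 libraries. Sall1, the transcription factor that maintains microglial identity, spanned 21.0 to 29.4 CPM, and Olfml3, a secreted olfactomedin protein, spanned 15.8 to 18.6. The groups overlapped for these 3 genes, except that Tmem119 in knockout mTBI (14.3 to 17.5 CPM) lay just below wild-type mTBI (17.6 to 18.5 CPM), with a log2 change of -0.16 (adjusted p = 0.740, edgeR). Aif1, which encodes the actin-bundling protein Iba1, ranged from 3.19 CPM in knockout replicate 3 to 9.69 in knockout replicate 2. Laptm5, a lysosomal membrane protein of leukocytes, ranged from 24.2 to 44.5 CPM, again highest in knockout replicate 2.

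The knockout comparison, knockout mTBI against wild-type mTBI, asked how loss of Tmsb4x changed the state after injury. No member passed. The 3 C1q chains had positive changes and P2ry12 and Gpr34 negative ones. For the 3 chains and P2ry12 most of the difference came with 1 library. P2ry12 had a log2 change of -0.35 (adjusted p = 0.732, edgeR), and of -0.12 without knockout replicate 2. In edgeR 0 of 34 members were called, beside 0.0150% of all genes. DESeq2 and limma-voom called 0 as well. At an unadjusted p under 0.05 there were 3 higher (Csf1, C1qc and Laptm5) and 2 lower members (Gpr34 and Cd9), 14.7% of 34 beside 6.60% of all genes (3.25% higher and 3.35% lower). Groups did not overlap for 1 higher member (Csf1, 2.94%) and 3 lower members (Gpr34, Tmem119 and Clec7a, 8.82%), beside 4.86% of all genes in each direction. Changes were positive for 21 members (61.8%, all genes 50.2%). The median log2 change was 0.051 over the members and 0.0012 over all genes.

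The 3 chains of C1q, which assemble into 1 protein and lie side by side on chromosome 4 (C1qb at 136880129-136886187, C1qc at 136889804-136893065 and C1qa at 136895917-136898803, all on the minus strand), gave the clearest case. C1qa was at 28.3, 27.3 and 27.1 CPM in sham, 35.4, 22.1 and 31.0 in wild-type mTBI and 28.4, 52.9 and 33.1 in knockout mTBI. C1qb was at 28.7, 27.9 and 29.3 CPM in sham, 32.6, 23.0 and 27.3 in wild-type mTBI and 28.6, 58.1 and 26.7 in knockout mTBI. C1qc was at 29.1, 28.6 and 27.5 CPM in sham, 27.6, 21.5 and 28.2 in wild-type mTBI and 27.7, 49.1 and 31.0 in knockout mTBI. For each chain knockout replicate 2 was the highest library and wild-type mTBI replicate 2 the lowest, and knockout replicates 1 and 3 lay near or within the range of the other groups.

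Against wild-type mTBI, the log2 change of C1qc was 0.48 (SE 0.19, adjusted p = 0.732), that of C1qb 0.45 (adjusted p = 0.739) and that of C1qa 0.37 (adjusted p = 0.739), by edgeR. Without knockout replicate 2 these became 0.19, 0.0026 and 0.063. Against sham the changes were 0.34, 0.40 and 0.47, with adjusted p of 0.813, 0.871 and 0.694, and without that library 0.043, -0.056 and 0.15, so that C1qb changed sign. Over the 9 libraries the levels of the chains were correlated with r of 0.921 to 0.931, and with r of 0.587 to 0.750 over the 8 libraries without knockout replicate 2. C1qa and P2ry12 had r = -0.782 over 9 libraries and 0.211 over those 8. These correlations describe libraries that share depth and groups, and they are given without a test.

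**Figure D3:**
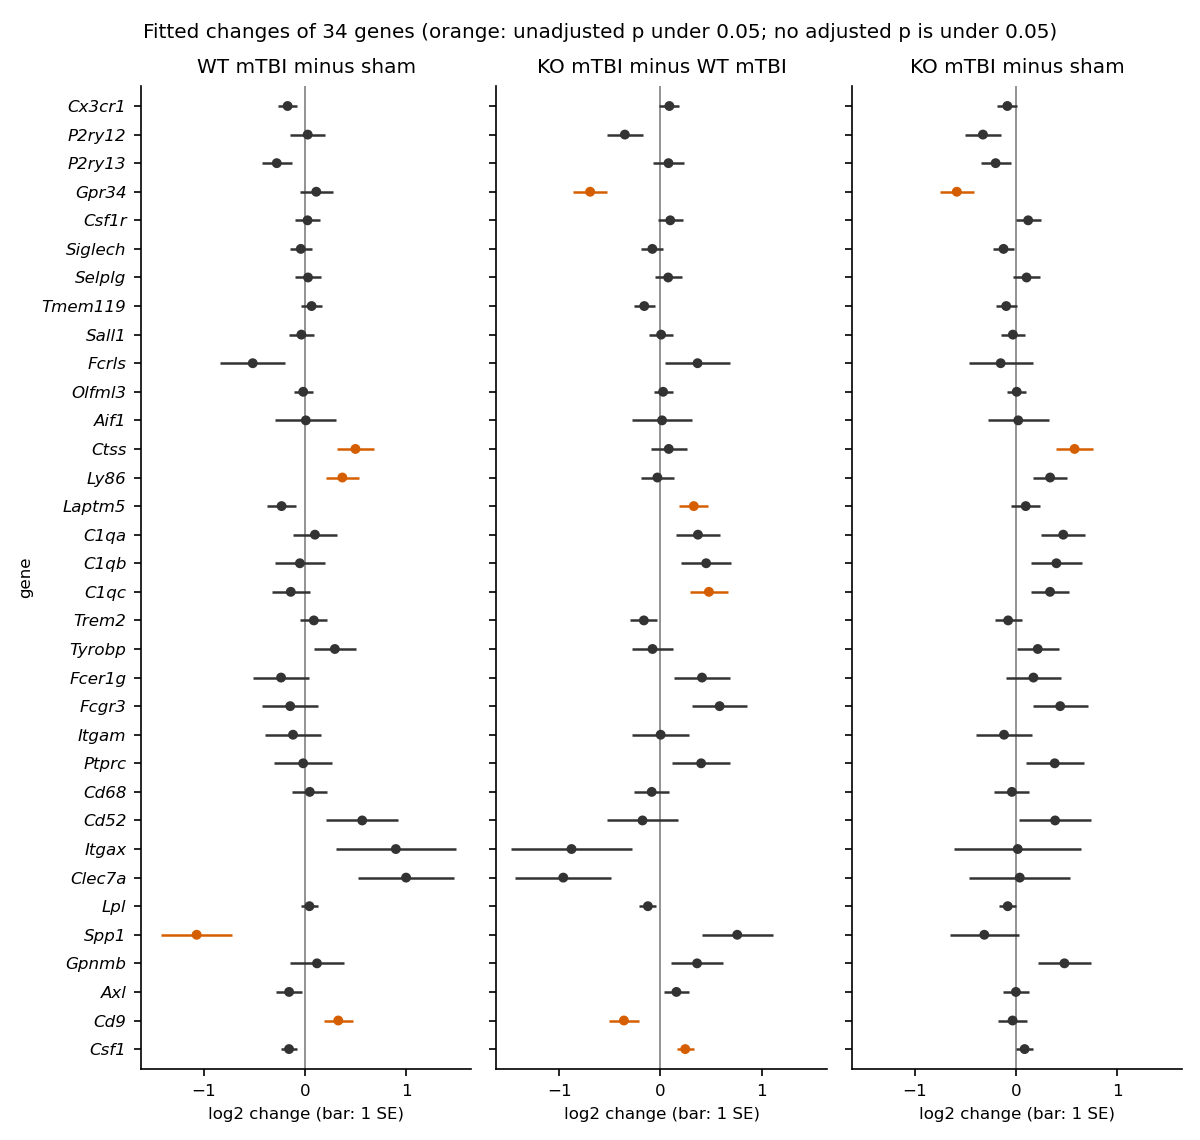
Points give the log2 change of the 34 tested members in the 3 comparisons, fitted with edgeR over 3 libraries a group, with bars of 1 SE on either side and a vertical line at no change. Orange marks an unadjusted p under 0.05 (4, 5 and 2 members from left to right), and no member has an adjusted p under 0.05.

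Knockout mTBI replicate 2 held the highest level of the 9 libraries for 18 of 34 members (52.9%), beside 14.1% of all genes tested, and the lowest for 5 members (14.7%), beside 13.6% of all genes. The 18 were Cx3cr1, Csf1r, Selplg, Fcrls, Aif1, Ctss, Laptm5, the 3 C1q chains, Tyrobp, Fcer1g, Fcgr3, Itgam, Ptprc, Spp1, Gpnmb and Csf1. The 5 were P2ry12, Gpr34, Trem2, Itgax and Lpl. Relative to the median of the other 8 libraries, Fcrls and Fcgr3 were each at 2.17 times, Ptprc at 2.09, C1qb at 2.06 and Spp1 at 2.00 times. Csf1r at 1.27 times and Cx3cr1 at 1.14 times differed less, while Siglech, Tmem119, Sall1 and Olfml3 lay within the range of the others at 0.920 to 1.02 times. The library therefore did not hold more of every microglial transcript.

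Of the 11 monocyte and neutrophil markers the same library was the highest for 7, namely Ccr2, Chil3, Plac8, Retnlg, S100a8, S100a9 and Vcan. For Ly6c2, Hp, Fn1 and Ly6g another library was highest. The examples below were chosen after their values were seen. S100a8, an antimicrobial protein subunit of neutrophils and monocytes, was at 2.35 CPM there and at 0.103 to 0.747 CPM elsewhere. Its partner S100a9 was at 3.66 CPM against 0.103 to 1.90. Chil3 was at 1.43 CPM (56 counts) against at most 0.157, and Ccr2, the chemokine receptor of inflammatory monocytes, at 1.33 CPM against 0.157 to 0.668. Ly6g, a defining neutrophil gene, had 0 counts in this library and in 7 of the others. The summed level of the 11 markers was 160 to 175 CPM in sham, 72.2 to 172 in wild-type mTBI and 136 to 171 in knockout mTBI. That sum was led by Fn1 and Vcan, which other brain cells also express. The 10 lymphocyte markers, led by Trac and Cd79a, summed to 0.873 to 2.16 CPM over the libraries and to 1.69 CPM in knockout replicate 2. The part of such cells in the members' levels was not tested.

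**Figure D4:**
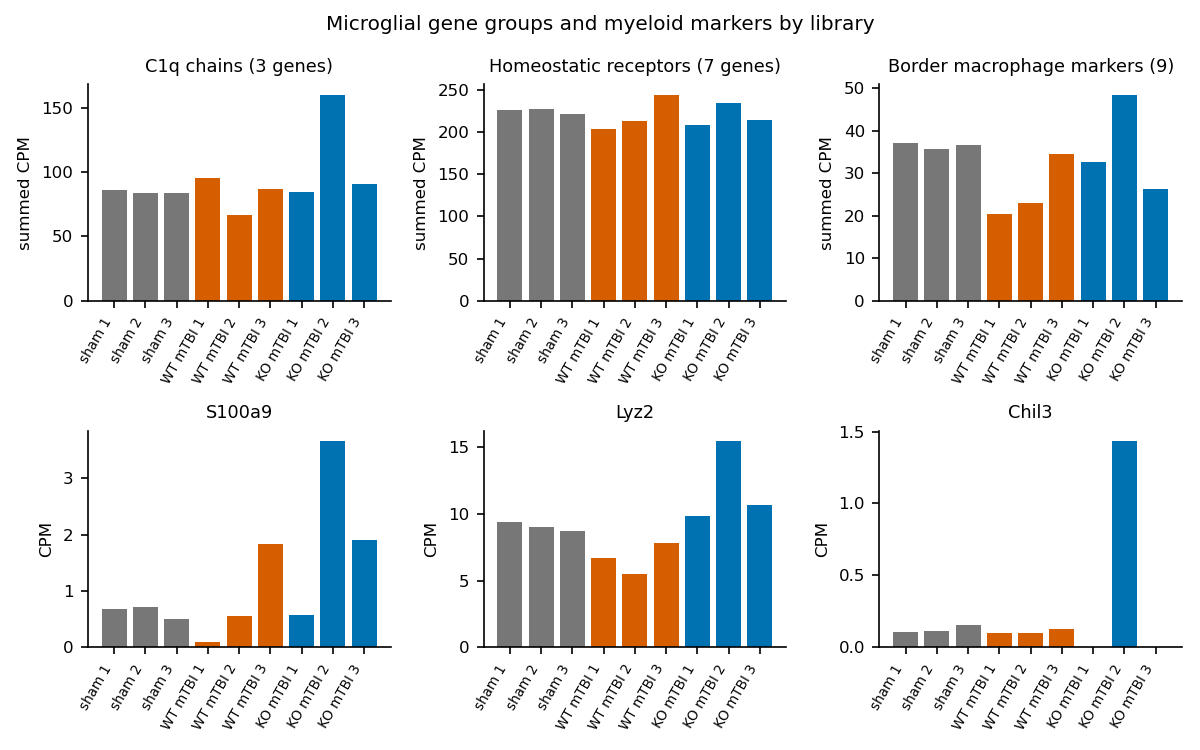
Each bar is 1 library, coloured by group, and gives the summed CPM of the 3 C1q chains, the 7 receptors of the resting state and the 9 border macrophage markers, or the CPM of S100a9, Lyz2 and Chil3, on axes from 0. Knockout mTBI replicate 2 is highest in every panel but that of the receptors, where wild-type mTBI replicate 3 is highest at 244 CPM. S100a9 and Chil3 were picked from 11 monocyte and neutrophil markers after their values were seen. Knockout mTBI replicate 2 was highest for 7 of those 11. The sum of the 11 was 171 CPM in it and 175 CPM in sham replicate 2.

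Trem2 did not share the pattern of this library, while Tyrobp (DAP12), its signalling adaptor, was highest there. Trem2 was at 11.3, 9.40 and 10.4 CPM in sham, 11.0, 9.99 and 12.1 in wild-type mTBI and 9.15, 9.03 and 11.3 in knockout mTBI. The groups overlapped, and knockout replicate 2 was the lowest by a small margin. Tyrobp was at 8.31, 6.48 and 8.01 CPM in sham, 10.6, 7.06 and 10.3 in wild-type mTBI and 7.32, 11.4 and 7.76 in knockout mTBI. Fcer1g, the Fc receptor gamma chain, was at 5.74, 5.15 and 5.79 CPM in sham, 5.90, 3.59 and 4.66 in wild-type mTBI and 4.13, 9.29 and 5.39 in knockout mTBI. For both, knockout replicate 2 was the highest of 9 and the groups overlapped. Fcgr3, a low-affinity receptor for IgG, was at 6.61, 17.4 and 9.22 CPM in knockout mTBI and at 7.03 to 8.40 CPM in the 6 wild-type libraries. Its log2 change against wild-type mTBI was 0.58 (SE 0.27, adjusted p = 0.732, edgeR).

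Among genes of leukocytes and phagocytes in general, Cd68, a lysosomal glycoprotein of phagocytes, was at 9.06, 8.90 and 9.01 CPM in sham, 8.95, 7.47 and 11.4 in wild-type mTBI and 7.11, 9.05 and 10.1 in knockout mTBI. Its groups overlapped, and knockout replicate 2 lay at the sham level. Itgam, the integrin chain CD11b, was at 5.22, 5.32 and 5.31 CPM in sham, 4.72, 3.70 and 6.18 in wild-type mTBI and 2.98, 7.14 and 4.50 in knockout mTBI. Its exons share 3450 of 5024 bases with Gm49368, a gene model on the same strand, so that its level is uncertain. Smaller parts are shared by Csf1r (873 of 5774 with Hmgxb3), Spp1 (309 of 1648 with Gm42793) and Cd9 (218 of 2044 with Gm26728). The same holds for Cd52 (172 of 1187 with Crybg2) and Cx3cr1 (78 of 4505 with Gm33858). The effect on their levels was not tested. Ptprc, the leukocyte phosphatase CD45, ranged from 3.28 to 5.13 CPM outside knockout replicate 2 and was at 7.75 in it. Cd52, a small surface glycoprotein of leukocytes, ranged from 0.663 to 1.74 CPM, with both ends in the wild-type mTBI group.

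Of the 8 tested genes of activated microglia 0 were called by edgeR in any of the 3 comparisons (all genes 0.0150% to 0.509%). Spp1 was called after injury by DESeq2 and under other settings given below. The summed level of all 9 was 204 to 210 CPM in sham, 195 to 214 in wild-type mTBI and 200 to 210 in knockout mTBI, ranges that overlap. Lpl, Axl, Csf1 and Cd9, which make up most of this sum, are also expressed by other brain cells. The median log2 change was 0.081 in the injury, 0.017 in the knockout and 0.0094 in the knockout with injury comparison, over the 8 tested genes.

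Spp1 (chr5:104435118-104441050, plus strand) was at 9.58, 9.15 and 9.63 CPM in sham, 3.59, 3.88 and 6.03 in wild-type mTBI and 6.48, 12.5 and 3.83 in knockout mTBI. All 3 injured wild-type libraries lay below sham, as did knockout replicates 1 and 3, and knockout replicate 2 lay above every other library. In wild-type mTBI the log2 change was -1.07 (SE 0.35, 95% interval -1.84 to -0.30, adjusted p = 0.232 in edgeR), or 2.10-fold lower. It passed with DESeq2 (adjusted p = 0.0408), with no count filter (0.00286) and in a fit of only the 6 wild-type libraries (0.0385). Against wild-type mTBI the knockout value was 0.76 (adjusted p = 0.732), and 0.20 without knockout replicate 2. In general descriptions of disease-associated microglia, Spp1 is among the transcripts that increase.

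The activated genes Cst7, Itgax and Clec7a were near the limit of detection. Cst7, the protease inhibitor cystatin F, had 0, 6 and 6 counts in sham, 8, 2 and 16 in wild-type mTBI and 2, 14 and 6 in knockout mTBI. Itgax, the integrin chain CD11c, had 10, 5 and 10 counts in sham, 14, 14 and 21 in wild-type mTBI and 4, 4 and 18 in knockout mTBI. Clec7a, a receptor for fungal glucans, had 10, 10 and 16 counts in sham, 16, 16 and 44 in wild-type mTBI and 14, 14 and 10 in knockout mTBI. The highest count of each gene was in wild-type mTBI replicate 3, and a count of 0, as for Cst7 in sham replicate 1, allows up to 3 counts or 0.0779 CPM by counting error only. No difference between groups passed at these counts. Clec7a had a log2 change of 1.00 in wild-type mTBI (SE 0.48, adjusted p = 0.397) and of -0.96 in the knockout comparison (SE 0.47, adjusted p = 0.732), by edgeR.

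Cd9, a tetraspanin also abundant in oligodendrocytes, was at 27.5, 30.2 and 31.0 CPM in sham, 42.8, 30.3 and 38.3 in wild-type mTBI and 23.2, 32.2 and 31.4 in knockout mTBI. Wild-type mTBI replicates 1 and 3 were the highest, and the groups overlapped. The log2 change was 0.33 in the injury (adjusted p = 0.364) and -0.36 in the knockout comparison (adjusted p = 0.732), by edgeR. Without wild-type mTBI replicate 1 the injury value was 0.21, without knockout replicate 1 the knockout value was -0.23, and without both it was -0.11. The 8 oligodendrocyte markers summed to 7499, 5209 and 9567 CPM in the wild-type mTBI libraries and to 6436 to 7607 CPM in the other 6. Within the wild-type mTBI group replicate 2 was lowest for these markers and for Cd9. The highest was replicate 3 for the markers and replicate 1 for Cd9. The part of oligodendrocytes in the result was not tested. Axl, a receptor tyrosine kinase for the uptake of dying cells, was at 48.4, 49.6 and 47.8 CPM in sham, 38.0, 43.4 and 49.2 in wild-type mTBI and 55.8, 39.6 and 50.3 in knockout mTBI, with overlap. Lpl, lipoprotein lipase, ranged from 74.1 to 94.8 CPM, and Gpnmb, a lysosome-associated glycoprotein, from 2.56 to 5.83.

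Csf1, a ligand of Csf1r, was at 31.9, 33.7 and 32.3 CPM in sham, 30.9, 26.8 and 30.0 in wild-type mTBI and 32.7, 36.8 and 34.4 in knockout mTBI. All 3 wild-type mTBI libraries lay below the 6 others. The log2 change was 0.24 in the knockout comparison (SE 0.083, adjusted p = 0.732) and -0.16 in the injury comparison (adjusted p = 0.436), by edgeR, and neither was called. Il34, the other ligand of Csf1r, made mainly by neurons, ranged from 28.5 to 39.5 CPM over the libraries.

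The third comparison set knockout mTBI against sham, and it shares the sham libraries with the injury comparison and the knockout libraries with the knockout comparison. In edgeR 0 of 34 members were called, beside 0.0699% of all genes, and DESeq2 and limma-voom also called 0. At an unadjusted p under 0.05 there were 1 higher member, Ctss, and 1 lower, Gpr34 (5.88% of 34), beside 7.20% of all genes (4.58% higher and 2.62% lower). Groups did not overlap for 3 higher members (Ctss, Ly86 and C1qa, 8.82%, all genes 8.75%) and 2 lower members (Gpr34 and P2ry12, 5.88%, all genes 8.40%). Changes were positive for 20 members (58.8%, all genes 52.6%). The median log2 change of the members was 0.021, beside 0.0099 over all genes, and 0.14 without knockout replicate 1 and -0.045 without knockout replicate 2.

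The other genes of these pathways were counted in 3 lists. Of 36 further genes that microglia express, all tested, 0 rose and 1 fell in the injury comparison (all genes 0.384% and 0.125%). Changes were positive for 11 and negative for 25 (all genes 53.0% positive), with a median of -0.040. The one that fell was Slc2a5, the fructose transporter GLUT5, at 4.78, 4.91 and 4.87 CPM in sham, 2.16, 1.91 and 1.99 in wild-type mTBI and 3.53, 4.27 and 2.23 in knockout mTBI. All 6 injured libraries lay below sham, with a log2 change of -1.26 (SE 0.22, adjusted p = 0.0424, edgeR) in wild-type mTBI. In the knockout comparison 0 of the 36 were called (all genes 0.0150%), 29 had positive changes (all genes 50.2%) and the median was 0.17. Relative to the sham mean, the median over the 36 was -0.082, 0.33 and 0.014 in knockout replicates 1, 2 and 3. It was -0.19, -0.10 and 0.12 in wild-type mTBI. Mertk, a receptor for the uptake of dying cells, had a log2 change of 0.46 in the knockout comparison (adjusted p = 0.732, edgeR). Without knockout replicate 2 this was 0.25. That library was its highest, at 65.1 CPM against 32.8 to 46.8 elsewhere. Runx1, a transcription factor of myeloid cells, was likewise highest there, at 2.15 CPM against 0.697 to 1.43. In knockout mTBI against sham 0 of the 36 were called (all genes 0.0699%), with 30 positive changes (all genes 52.6%). Among them, Cd86, a co-stimulatory ligand, had one of 0.55 (adjusted p = 0.617, edgeR). Lgmn, a lysosomal protease, ranged from 100.5 CPM in sham replicate 3 to 140 in wild-type mTBI replicate 3, and Rgs10, a regulator of G-protein signalling, from 12.2 to 21.8.

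Of 30 further activation genes 28 were tested, with 19 positive changes (all genes 53.0%) and a median of 0.13 in the injury comparison. There 1 of the 28 rose (all genes 0.384%). This was Cd63, a tetraspanin of late endosomes, at 38.5, 36.6 and 38.9 CPM in sham, 58.5, 52.6 and 54.3 in wild-type mTBI and 41.4, 42.8 and 42.7 in knockout mTBI. The wild-type mTBI libraries lay above all 6 others, with a log2 change of 0.54 (SE 0.071, adjusted p = 0.0152, edgeR). The lysosomal proteases Ctsl (0.45, adjusted p = 0.0514) and Ctsd (0.54, adjusted p = 0.0716) had positive changes that did not pass in edgeR. Both passed with DESeq2 (0.000632 and 0.00209), with limma-voom (0.00315 and 0.00425) and with no count filter (0.00246 and 0.000347), and neither with the sham libraries summed. In the knockout comparison edgeR called 0 of 28 (all genes 0.0150%). Cd63 had a log2 change of -0.38 there (adjusted p = 0.719, edgeR), which DESeq2 called (0.00486). Lyz2, lysozyme of macrophages and granulocytes, had one of 0.85 (adjusted p = 0.732, edgeR), which was called by DESeq2 (0.0152) and with no count filter (0.00781). Lyz2 was highest in knockout replicate 2, at 15.4 CPM against 5.46 to 10.7 elsewhere. In knockout mTBI against sham edgeR called 0 of 28 (all genes 0.0699%). The smallest p values belonged to Nfkbia, Ccl2 and Ctsd. Nfkbia, an inhibitor of NF-kappaB, had a log2 change of 0.48 (adjusted p = 0.523, edgeR). Ccl2, a chemokine for monocytes, had one of 1.79 (adjusted p = 0.538, edgeR). Ctsd had one of 0.29 (adjusted p = 0.576, edgeR). Knockout replicate 2 was the highest library for Nfkbia, at 24.0 CPM against 12.3 to 18.3, and for Ccl2, at 0.870 against 0.0524 to 0.411. Without it the log2 changes were 0.21 for Nfkbia, 1.11 for Ccl2 and 0.15 for Ctsd.

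Of 12 ligands and partner receptors, all tested, 1 rose in the injury comparison (all genes 0.384%). Gas6, the ligand of Axl and Mertk, was at 76.9, 79.5 and 82.5 CPM in sham, 110, 116 and 111 in wild-type mTBI and 93.1, 113 and 99.1 in knockout mTBI. All 6 injured libraries lay above sham, and the log2 change was 0.50 in wild-type mTBI (SE 0.080, adjusted p = 0.0355, edgeR) and 0.35 in knockout mTBI (adjusted p = 0.171, edgeR). The latter passed with DESeq2 (0.0215), limma-voom (0.0189) and no count filter (0.0497), and without replicate 1 of both injured groups (0.0119). None of the other 11 was called by edgeR in the 3 comparisons. The shares of all genes called there were 0.509% (injury), 0.0150% (knockout) and 0.0699% (knockout mTBI against sham). Cd47, the signal against phagocytosis, ranged from 142 to 190 CPM, its receptor Sirpa from 343 to 383, Clu, a secreted chaperone, from 775 to 1052, and Tgfbr2, a receptor for TGF-beta, from 15.7 to 33.6 with knockout replicate 2 highest. Cd63 and Gas6 are also expressed by other brain cells. Slc2a5, Cd63 and Gas6 each lost the call when any 1 sham library was left out, with adjusted p of 0.120 to 0.249, and when the 3 sham libraries were summed. Choroid plexus markers stood far above sham in every injured library but knockout replicate 1, as given above. Their part in the values of Cd63 and Gas6 was not tested. Gas6 and Cd63 in knockout replicate 1, at 243 CPM of these markers, were at 93.1 and 41.4 CPM, beside 99.1 to 113 and 42.7 to 42.8 CPM in knockout replicates 2 and 3, at 4989 and 4088 CPM of them.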

How the data were processed

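The values analysed were raw read counts per Ensembl gene. The authors counted 9 libraries, per the file headers, with featureCounts 2.0.6 over exons of Ensembl 98 on GRCm38, with no option for strand, fragments or multi-mapping reads. Per the labels, reads were paired, 150 bp, from a NovaSeq 6000. The submitters' processing notes also name HISAT2, Trim Galore and SAMtools. Totals were 36452443 to 39590872 counts, and 0 count columns were left unused. Symbols and positions (GENCODE M21, GRCm38) were matched by identifier for 55154 of 55421 genes.

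From the deposited counts, genes were filtered with filterByExpr, scaled with TMM factors and compared by edgeR 4.0.16 (R 4.3.3) with its quasi-likelihood F test, two-sided, over all 9 libraries with 1 shared spread and no covariates. Genes were called at a Benjamini-Hochberg adjusted p under 0.05 over the 20032 genes tested. The test was also run on simulated counts, drawn for each gene with the same spread in all groups. In these data the sham libraries varied less than the injured ones. The simulation therefore does not bear on the p-values against sham. Logarithms in the plots and correlations used CPM plus 0.5. Intervals are 95% intervals of the fitted log2 change. RPKM divides CPM by exon length. Alternatives were DESeq2 1.42.0, limma-voom 3.58.1, other scalings, no count filter, only the compared libraries, a replicate block and leaving out libraries. A sample sum of the sham libraries was added after seeing the data.

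The members and lists were chosen with earlier results of these data known. Values per library are given for members called, those with unadjusted p under 0.05 and no overlap, the 2 of highest RPKM per role, C1q, Trem2, Tyrobp, Csf1r and Csf1. Others given in full were chosen after their values were seen. Of each pathway list, the genes called and the 3 of smallest p per comparison are named. Since mates were counted singly, 1 fragment could give 2 counts, and counting limits are too narrow.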

Additional observations from a re-analysis of the deposited data

How the results depend on the processing

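Counts of genes called moved with the processing. Counts of members called are too small to be compared with them. For injury, 102 genes were called, beside 541 with DESeq2, 722 with limma-voom, 676 with no count filter, 253 in a fit of the 6 libraries compared, 523 without replicate 1 of both injured groups, 1 with the sham libraries summed and 5 to 252 with 1 library left out. Members called there were 0, beside 1 with DESeq2 (Spp1), 2 with no filter (Ctss and Spp1) and 2 in the fit of 6 libraries (Fcrls and Spp1). For the knockout, 3 genes were called, beside 18 with DESeq2, 68 with no filter, 1 with 6 libraries, 24 without replicate 1 of both injured groups and 2 to 7 with 1 library left out, and 0 members under every alternative run. For the knockout with injury against sham, 14 genes were called, beside 226 with DESeq2, 279 with limma-voom, 387 with no filter, 71 with 6 libraries, 337 without replicate 1 of both, 0 with sham summed and 2 to 128 with 1 library left out. Members called were 0, beside 1 (Ctss) with no filter and 1 (Ctss, adjusted p = 0.0135) without replicate 1 of both, where the median log2 change was 0.14. With 1 library left out, the members' median ran from -0.056 to 0.043 for injury, -0.046 to 0.16 for the knockout and -0.045 to 0.14 for the knockout with injury, and no member was called. Without wild-type mTBI replicate 2, 38 genes were higher and 44 lower after injury, beside 77 and 25 with it. C1qb in knockout mTBI against sham ran from 0.60 without knockout replicate 3 to a reversed -0.056 without knockout replicate 2. Each reduced fit also held fewer samples. The cause of these moves was not tested.

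No pairing by replicate number was seen. Deviations of same-numbered libraries had correlations of -0.095 to 0.074, beside -0.13 to 0.15 for libraries of different number. The sham libraries differed little from each other, so correlations with them could hardly show a pairing. With a replicate block, 107, 3 and 13 genes and 0 members were called, and of the calls named here Slc2a5 was lost (adjusted p = 0.0502). Slc2a5 was also lost without any 1 wild-type mTBI library (adjusted p = 0.0524 to 0.105), and Gas6 without wild-type mTBI replicate 2 (0.0638) or 3 (0.0998) or knockout replicate 3 (0.0573). With the sham libraries summed, Slc2a5, Cd63 and Gas6 were all lost (adjusted p = 1.00 each). With 3 libraries a group, and under 20 counts for most libraries of Cst7, Itgax and Clec7a, depth limits what can be said of those genes.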
